A study of Mus musculus with 9 samples.

Results

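The heat shock proteins and small chaperones described here are 10 genes, taken by symbol from the 56791 genes of a raw count table of mouse gastrocnemius muscle: Hspa1a, Hspa1b, Hspa8, Hsp90aa1, Hsph1, Dnajb1, Hspb1, Hspb7, Hspb8 and Cryab. Each symbol matched 1 row, and all 10 genes passed the filter on low counts that 17534 genes passed. Heat shock proteins hold unfolded or damaged proteins and help them refold or be degraded. The HSP70 proteins work in cycles of ATP use with J-domain proteins, which deliver clients, and with nucleotide exchange factors, which reset them, while HSP90 matures signalling proteins. The small heat shock proteins need no ATP: they bind unfolding proteins and, in striated muscle, protect the Z-disc and the actin and desmin filaments. Heat shock factor 1 induces many of these genes under proteotoxic stress by binding inverted repeats of a short motif, the heat shock element.

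The study compared gastrocnemius, a mainly fast-twitch hindlimb muscle, between 3 groups of female mice with 3 libraries each. Aged mice given ginkgolide B (GB), a terpene lactone of the ginkgo tree, received 12 mg per kg by gavage every day over 2 months. Aged mice given vehicle and young mice given vehicle received saline in the same way. The vehicle titles carry 23M for aged and 3M for young mice, and the GB titles carry no such value. The labels give no strain, and nothing in them states that each library is a different animal, so p-values here reflect only how these libraries scatter, possibly for technical reasons. The series design sets aged GB against aged vehicle and aged vehicle against young vehicle, and aged GB against young vehicle is added here. All 3 comparisons come from the same 9 libraries, so they are not independent of each other.

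Promoter windows from RefSeq (GRCm38.p6, 250 bases upstream to 50 bases downstream of an annotated start) were found for 7 of the 10 genes, in 9 windows: Hspa1a, Hspa1b, Hsph1, Dnajb1, Hspb1, Hspb7 and Hspb8. They were searched for the 2 core inverted repeats of the heat shock element, GAANNTTC and TTCNNGAA, which are palindromes and so read alike on both strands. The 250 upstream bases are shown, with the matches in capitals, for the near-identical inducible pair Hspa1a and Hspa1b, for Hsph1, which was lower in both aged groups, and for Hspb1, which was higher in aged GB muscle. They lie at chr17:34972157-34972406 (minus strand) for Hspa1a, chr17:34959239-34959488 (minus strand) for Hspa1b, chr5:149636337-149636586 (minus strand, the first of 2 annotated starts) for Hsph1 and chr5:135887669-135887918 (plus strand) for Hspb1.
Hspa1a: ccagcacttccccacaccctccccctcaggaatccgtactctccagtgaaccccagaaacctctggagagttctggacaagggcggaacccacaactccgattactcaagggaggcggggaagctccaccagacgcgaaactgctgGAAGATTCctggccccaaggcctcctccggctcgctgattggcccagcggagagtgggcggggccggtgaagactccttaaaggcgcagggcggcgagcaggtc
Hspa1b: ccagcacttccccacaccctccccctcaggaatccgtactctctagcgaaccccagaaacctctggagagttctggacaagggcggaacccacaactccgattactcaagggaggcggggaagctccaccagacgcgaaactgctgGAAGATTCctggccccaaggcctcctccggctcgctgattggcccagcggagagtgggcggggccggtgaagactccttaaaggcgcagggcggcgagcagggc
Hsph1: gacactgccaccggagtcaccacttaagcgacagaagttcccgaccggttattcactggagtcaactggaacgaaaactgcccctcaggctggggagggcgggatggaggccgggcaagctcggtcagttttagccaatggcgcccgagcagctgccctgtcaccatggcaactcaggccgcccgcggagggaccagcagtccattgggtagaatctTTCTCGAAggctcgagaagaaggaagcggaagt
Hspb1: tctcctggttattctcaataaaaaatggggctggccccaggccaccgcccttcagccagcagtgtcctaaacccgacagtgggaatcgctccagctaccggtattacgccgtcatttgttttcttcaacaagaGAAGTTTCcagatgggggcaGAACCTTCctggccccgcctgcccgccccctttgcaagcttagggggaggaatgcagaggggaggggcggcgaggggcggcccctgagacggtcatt
In Hspb8 the match falls just past the start, and 30 bases around it (chr5:116422844-116422873, minus strand) are shown.
Hspb8: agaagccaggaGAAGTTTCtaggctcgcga

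Hspa1a and Hspa1b carried the same match, GAAGATTC, at bases -104 to -97 from the start. Their 250 upstream bases were identical at 247 positions (98.8%), and the differences, counted from 1 at the 5′ end and with the Hspa1b base first, were T44C, C47T and G249T. Hspb1 carried GAAGTTTC at -117 to -110 and GAACCTTC at -97 to -90. Hsph1 carried TTCTCGAA at -33 to -26, and past the start the overlapping TTCTGGAA at 37 to 44 and GAAAGTTC at 42 to 49. Hspb8 carried GAAGTTTC at 3 to 10, and the windows of Hspb7 and Dnajb1 held neither sequence. At least 1 repeat was present in 6 of the 9 windows (66.7%), against 15.1% of all 32851 windows. It was present in 22.4% of 76 windows of other genes of the chaperone network. Those genes are listed below and include heat shock factors and filament and autophagy partners, which are not chaperones. The 2 repeats overlapping as 3 alternating units were present in 2 of the 9 windows, both of Hsph1. They were present in 6.58% of the windows of other chaperone network genes and 0.603% of all windows. The 2 windows of Hsph1 overlap and hold the same matches, so they are 1 site counted in both. The near-identical windows of Hspa1a and Hspa1b are also counted separately in these shares. A match of letters is a description of the window and does not show binding.

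The libraries held 39478427 to 44294097 counts in aged GB muscle, 52068522 to 54095457 in aged vehicle muscle and 51543383 to 61680520 in young vehicle muscle. The GB libraries stood apart from both vehicle groups. Mitochondrially encoded genes took 24.3% to 26.1% of their counts, against 13.9% to 15.3% in aged vehicle libraries and 8.6% to 10.2% in young vehicle libraries, and 18678 to 19362 genes had a count, against 22868 to 23045 and 22616 to 24185. Between aged GB and aged vehicle the log2 fold change also varied with gene length: its median was 0.78 for genes up to 1500 bases and -0.53 for genes over 6000 bases, whereas the same medians were 0.04 and 0.02 between aged and young vehicle. The labels name no batch. In the GB comparison, library preparation and treatment therefore cannot be told apart, and where an offset for gene length, or library totals as the scale, ended a call or moved a called value by over 1.5 times, that value is given as well. Of 8 fast-fibre markers all were detected, with summed levels of 105570 to 127370 CPM in aged GB, 82422 to 96980 CPM in aged vehicle and 109030 to 115650 CPM in young vehicle libraries. Tnnc2 was near the floor, with means of 0.76, 0.66 and 0.97 CPM in the same order of groups. The sums combine markers that moved in both directions between aged GB and aged vehicle. In bulk tissue, fewer cells of a type and less RNA per cell cannot be told apart.

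Levels are given as CPM, counts relative to library size, scaled with TMM factors, and differences as log2 fold changes with their standard error (SE) from edgeR. Genes with a Benjamini-Hochberg adjusted p under 0.05 over the 17534 genes were called. In aged GB against aged vehicle muscle, 5 of the 10 genes were higher (Hspa1a, Hspa8, Hspb1, Hspb8 and Cryab) and 0 were lower. Of all genes tested, 53.2% were called in that comparison, 24.4% higher and 28.8% lower. At an unadjusted p under 0.05 the count of lower genes was also 0, as it was with DESeq2 and limma-voom. In aged against young vehicle muscle, 0 of the 10 genes were higher and 2 were lower (Hspa8 and Hsph1), where 8.6% of all genes were called, 4.32% higher and 4.28% lower. The count of higher genes was 0 at an unadjusted p under 0.05 and with DESeq2 and limma-voom as well. In aged GB against young vehicle muscle, the same 5 genes as against aged vehicle were higher and Hsph1 was lower, where 53.6% of all genes were called, 24.7% higher and 29% lower. The aged GB and aged vehicle libraries did not overlap for 5 of the 10 genes, all higher, where 59.7% of all genes did not overlap (27.3% higher, 32.5% lower). Aged and young vehicle libraries did not overlap for 3 genes, all lower (Hspa1a, Hspa8 and Hsph1), where 34.4% of all genes did not (17.5% higher, 16.9% lower). For aged GB and young vehicle libraries these were 5 genes higher and 1 lower, where 60.7% of all genes did not overlap (27.5% higher, 33.2% lower). The median log2 fold change of the 10 genes was 0.42 for aged GB against aged vehicle, -0.13 for aged against young vehicle and 0.53 for aged GB against young vehicle, beside -0.05, -0.00 and -0.09 over all genes tested.

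**Figure D1:**
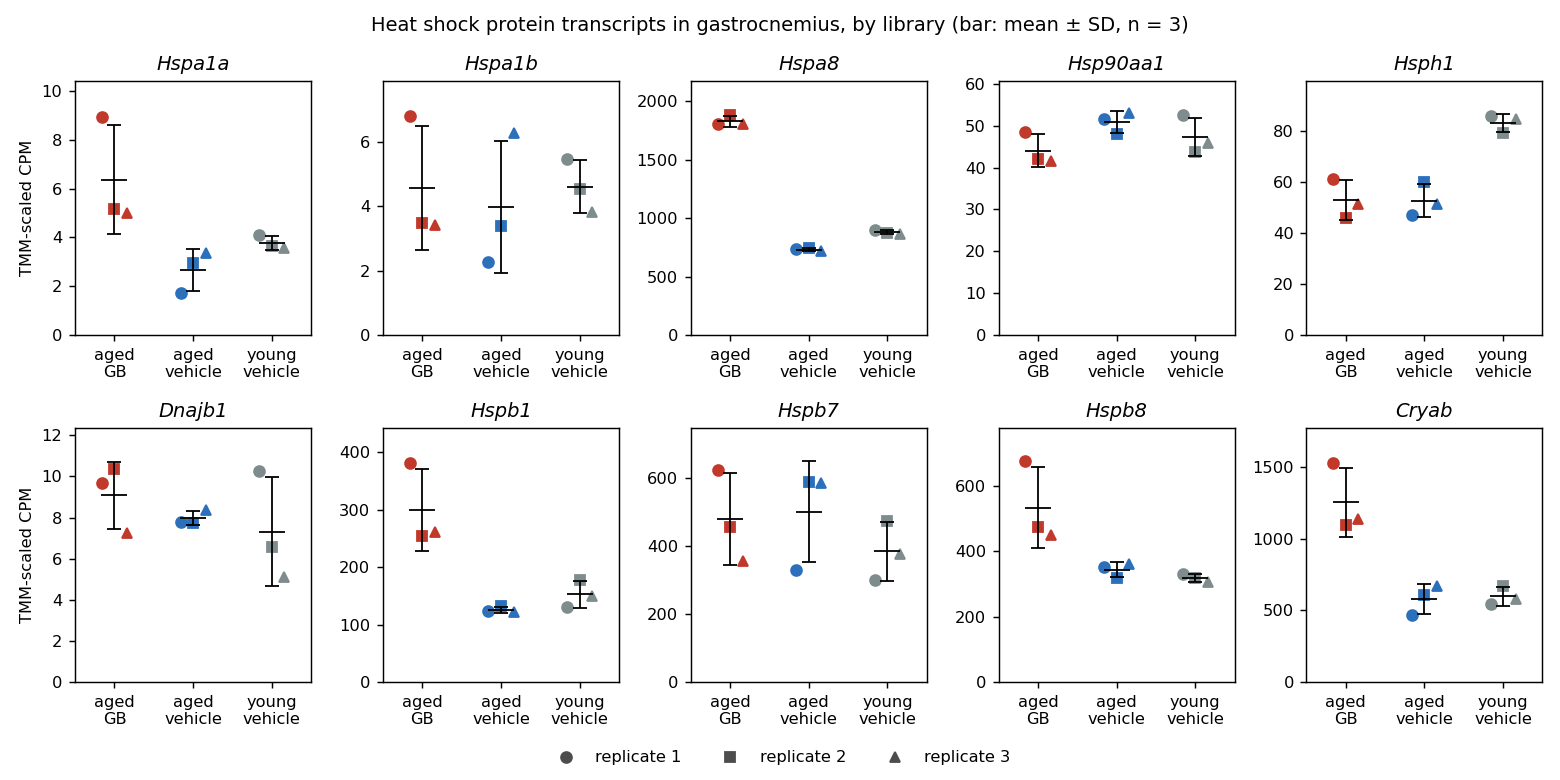
TMM-scaled CPM of each of the 10 genes in the 9 libraries, with symbols for the replicate and bars for the mean ± SD of 3 libraries. Hspa8, Hspb1, Hspb8, Cryab and Hspa1a were higher in every aged GB library than in any vehicle library, and Hsph1 was lower in both aged groups than in young vehicle.

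**Figure D2:**
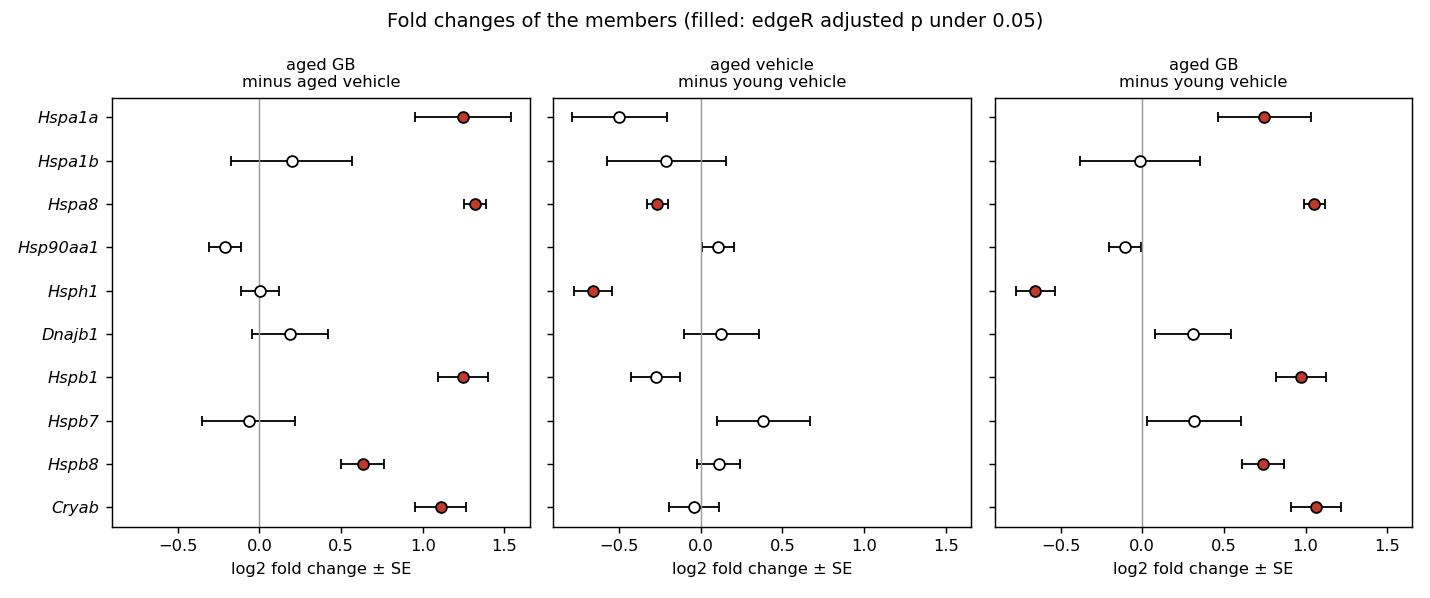
Log2 fold changes with SE of the 10 genes in the 3 comparisons, filled where the edgeR adjusted p was under 0.05. The called differences are 5 above 0 for aged GB against aged vehicle, 2 below 0 for aged against young vehicle, and 5 above and 1 below 0 for aged GB against young vehicle.

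Hspa8 encodes HSC70, the constitutive HSP70 of the cytosol, which also delivers proteins to lysosomes in chaperone-mediated autophagy. Hspa8 measured 1801, 1881 and 1804 CPM in aged GB libraries, 735, 745 and 716 CPM in aged vehicle libraries and 902, 877 and 862 CPM in young vehicle libraries. The groups did not overlap in any pair, and the spread within each group was a few percent of its mean (1829 ± 45.6, 732 ± 14.7 and 881 ± 20.0 CPM, SD, n = 3 each, for aged GB, aged vehicle and young vehicle). Hspa8 was 2.50-fold higher in aged GB than in aged vehicle muscle (log2 fold change 1.32, SE 0.07, edgeR adjusted p = 8.79e-09) and also higher than in young vehicle muscle (1.05, SE 0.07, adjusted p = 4.63e-08). The difference from aged vehicle was 1.39 with the length offset and 0.75 (adjusted p = 9.84e-07) on library totals, where the difference from young vehicle was 0.49 (adjusted p = 3.96e-05). In aged against young vehicle muscle Hspa8 was lower (log2 fold change -0.27, SE 0.06, edgeR adjusted p = 0.0231). That call was lost on leaving out any 1 of the 6 vehicle libraries, with adjusted p between 0.0510 and 0.106 and a log2 fold change between -0.28 and -0.25. Of its transcript 100-mers, 28.2% also occurred in other genes, chiefly the pseudogene Gm15459 with 26.3%, which had 206 to 278 counts in aged GB, 585 to 704 in aged vehicle libraries and 859 to 940 in young vehicle libraries, against 56391 to 62686, 41757 to 47171 and 50565 to 61058 counts of Hspa8. Hspa8 also hosts the small nucleolar RNA genes Snord14c, Snord14d and Snord14e on its own strand.

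Hspa1a and Hspa1b encode the stress-inducible HSP70 from neighbouring, near-identical genes. Hspa1a measured 8.93, 5.16 and 4.99 CPM in aged GB libraries, 1.71, 2.94 and 3.38 CPM in aged vehicle libraries and 4.11, 3.66 and 3.58 CPM in young vehicle libraries. Each aged GB library was above each vehicle library, and each aged vehicle library was below each young one. Hspa1a was 2.37-fold higher in aged GB than in aged vehicle muscle (log2 fold change 1.25, SE 0.29, edgeR adjusted p = 0.00313). Against young vehicle it was also called higher (0.75, SE 0.29, adjusted p = 0.0434), but that call was lost under 9 of 22 alternatives. Without aged GB replicate 1, the library with the highest value, the difference was 0.41 (adjusted p = 0.223), on library totals 0.20 (adjusted p = 0.604) and with the length offset 0.61 (adjusted p = 0.0879). The call also ended with the replicate block (adjusted p = 0.0764), at a threshold of 0.01, and without aged vehicle replicate 2 or any 1 of the young vehicle libraries (adjusted p = 0.0625 to 0.123). In aged against young vehicle muscle the difference of Hspa1a was -0.50 (SE 0.29, adjusted p = 0.344), which did not pass. Hspa1b measured 6.80, 3.48 and 3.42 CPM in aged GB libraries, 2.27, 3.39 and 6.27 CPM in aged vehicle libraries and 5.48, 4.53 and 3.83 CPM in young vehicle libraries. The ranges of Hspa1b overlapped among all groups, and its difference between aged GB and aged vehicle was 0.20 (SE 0.37, adjusted p = 0.685).

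The pair shares 47.1% of the 100-mers of Hspa1a and 49.9% of those of Hspa1b, so reads could have been split between them or lost in counting. With both summed to 1 gene, the difference between aged GB and aged vehicle was 0.71 (SE 0.32, edgeR adjusted p = 0.0805), which did not pass, and those for aged against young vehicle (-0.33, SE 0.32, adjusted p = 0.602) and aged GB against young vehicle (0.38, SE 0.32, adjusted p = 0.339) did not pass either. The Hspa1b share of the pair's counts was 40.3% to 43.2% in aged GB libraries, 53.6% to 65.0% in aged vehicle libraries and 51.7% to 57.2% in young vehicle libraries. The exact 95% binomial intervals, which cover counting error only, reached up to 47.7% in the aged GB libraries and down to 48.6% in aged vehicle libraries and 47.2% in young vehicle libraries, so no aged GB interval overlapped an aged vehicle one, and 1 aged GB interval (replicate 1) overlapped 1 young vehicle interval (replicate 3). On library totals the Hspa1a difference between aged GB and aged vehicle was 0.68 (adjusted p = 0.0800), no longer called, and with the length offset it was 1.07 (adjusted p = 0.00721). The counts behind these values were low, 156 to 281 for Hspa1a in aged GB, 97 to 206 in aged vehicle libraries and 211 to 278 in young vehicle libraries. Gm20481, annotated on the opposite strand, overlaps Hspa1a, and whether counting used strand is not known.

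Hsph1 encodes HSP110, a nucleotide exchange factor for HSP70 that acts with J-domain proteins in taking aggregates apart. Hsph1 measured 61.3, 45.8 and 51.3 CPM in aged GB libraries, 47.0, 59.7 and 51.1 CPM in aged vehicle libraries and 85.6, 78.9 and 84.6 CPM in young vehicle libraries. Both aged groups lay below every young library and overlapped each other. Hsph1 was lower in aged than in young vehicle muscle (log2 fold change -0.66, SE 0.12, edgeR adjusted p = 0.00464), 1.58-fold lower, and lower in aged GB than in young vehicle muscle (-0.65, SE 0.12, adjusted p = 0.000473). The age difference was called under all 22 alternatives, with adjusted p of at most 0.0288 and values between -0.76 and -0.58. Between aged GB and aged vehicle the difference of Hsph1 was 0.00 (SE 0.12, adjusted p = 0.979), and its sign rested on the scale: it was 0.42 with the length offset (adjusted p = 0.0152) and -0.56 on library totals (adjusted p = 0.00339). Against young vehicle it was -0.24 (adjusted p = 0.139) with the length offset and -1.21 (adjusted p = 8.30e-06) on library totals. As CPM ratios, Hsph1 to Hspa8 was 0.0243 to 0.0340 in aged GB, 0.0640 to 0.0802 in aged vehicle libraries and 0.0900 to 0.0981 in young vehicle libraries, in 3 ranges that did not overlap.

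Dnajb1, the J-domain protein HSP40 that stimulates the ATPase of HSP70, measured 9.66, 10.4 and 7.23 CPM in aged GB libraries, 7.79, 7.75 and 8.39 CPM in aged vehicle libraries and 10.3, 6.59 and 5.10 CPM in young vehicle libraries. The 3 ranges overlapped. Its differences were 0.19 (SE 0.23, edgeR adjusted p = 0.528) for aged GB against aged vehicle and 0.13 (SE 0.23, adjusted p = 0.817) for aged against young vehicle. Against young vehicle the aged GB difference was 0.31 (SE 0.23, adjusted p = 0.282), and without young vehicle replicate 1, which held the highest young value, it was 0.63 (adjusted p = 0.0230). Hsp90aa1, the inducible cytosolic HSP90, measured 48.5, 42.1 and 41.5 CPM in aged GB libraries, 51.7, 48.0 and 53.0 CPM in aged vehicle libraries and 52.5, 43.8 and 45.9 CPM in young vehicle libraries. Its ranges overlapped as well, with differences of -0.21 (SE 0.10, adjusted p = 0.0943) for aged GB against aged vehicle and 0.10 (SE 0.10, adjusted p = 0.608) for aged against young vehicle. The first of these was called lower on library totals (-0.77, adjusted p = 6.29e-05), without aged GB replicate 1 (-0.29, adjusted p = 0.0261) and with no filter on low counts (-0.28, adjusted p = 0.0424). Against young vehicle Hsp90aa1 differed by -0.11 (SE 0.10, adjusted p = 0.390), and it was called lower on library totals (-0.67, adjusted p = 0.000222). Hsp90aa1 shares 38% of its 100-mers with other genes, chiefly the pseudogene Gm12346.

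Among the small heat shock proteins, 3 of the 4 genes were higher in aged GB than in aged vehicle muscle, where 24.4% of all genes were. Of these 4 genes, 0 were called between aged and young vehicle, in either direction and also at an unadjusted p under 0.05 and with DESeq2 and limma-voom, where 8.6% of all genes were called. Their summed level was 2566 ± 559 CPM in aged GB, 1553 ± 246 CPM in aged vehicle and 1456 ± 171 CPM in young vehicle libraries (SD, n = 3 each). Cryab encodes alpha-B-crystallin, which binds desmin and titin and whose mutation causes desmin-related myopathy in humans. Cryab measured 1528, 1095 and 1138 CPM in aged GB libraries, 467, 607 and 669 CPM in aged vehicle libraries and 546, 672 and 578 CPM in young vehicle libraries. Every aged GB library stood above every vehicle library, and the vehicle groups overlapped. Cryab was 2.16-fold higher in aged GB than in aged vehicle muscle (log2 fold change 1.11, SE 0.15, edgeR adjusted p = 9.49e-05) and higher than in young vehicle muscle (1.07, SE 0.15, adjusted p = 0.000129). With the length offset the first of these was 0.45 (adjusted p = 0.0124), and on library totals it was 0.54 (adjusted p = 0.0199). Against young vehicle the values of Cryab were 0.43 (adjusted p = 0.0159) and 0.51 (adjusted p = 0.0251). Between aged and young vehicle Cryab differed by -0.04 (SE 0.15, adjusted p = 0.912). Hspb2, which encodes another small heat shock protein, is annotated on the opposite strand and overlaps Cryab, so without strand their reads cannot be told apart where they overlap.

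Hspb1 encodes the mouse HSP25, a small heat shock protein that binds actin filaments. Hspb1 measured 381, 255 and 260 CPM in aged GB libraries, 123, 132 and 122 CPM in aged vehicle libraries and 131, 177 and 149 CPM in young vehicle libraries. Aged GB libraries lay above all vehicle libraries, with a log2 fold change of 1.25 against aged vehicle (SE 0.15, edgeR adjusted p = 3.15e-05) and of 0.97 against young vehicle (SE 0.15, adjusted p = 0.000219). These were 0.44 (adjusted p = 0.0117) and 0.17 (adjusted p = 0.278) with the length offset, so the call against young vehicle was lost. On library totals they were 0.68 (adjusted p = 0.00350) and 0.42 (adjusted p = 0.0431). The gene has the shortest length in the table of the 10, 1031 bases. Between aged and young vehicle the difference of Hspb1 was -0.28 (SE 0.15, adjusted p = 0.318). Its pseudogene Hsp25-ps1 holds 44% of its 100-mers and had 3 to 9 counts in aged GB libraries, 2 to 5 in aged vehicle libraries and 2 to 7 in young vehicle libraries.

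Hspb8 encodes a small heat shock protein that works with the co-chaperone Bag3 in chaperone-assisted autophagy of damaged filament proteins such as filamin C. Hspb8 measured 675, 476 and 451 CPM in aged GB libraries, 353, 318 and 363 CPM in aged vehicle libraries and 332, 320 and 307 CPM in young vehicle libraries. The aged GB libraries again did not overlap either vehicle group. Hspb8 was 1.55-fold higher in aged GB than in aged vehicle muscle (log2 fold change 0.63, SE 0.13, edgeR adjusted p = 0.00137) and higher than in young vehicle muscle (0.74, SE 0.13, adjusted p = 0.000424). Both alternative scales ended the first call, at 0.13 (adjusted p = 0.391) with the length offset and 0.07 (adjusted p = 0.695) on library totals. They ended the call against young vehicle as well, at 0.27 (adjusted p = 0.0755) and 0.19 (adjusted p = 0.282). Between aged and young vehicle Hspb8 differed by 0.11 (SE 0.13, adjusted p = 0.693). Hspb7, the cardiovascular heat shock protein, which interacts with filamin C, measured 625, 457 and 356 CPM in aged GB libraries, 331, 589 and 585 CPM in aged vehicle libraries and 302, 475 and 378 CPM in young vehicle libraries. Its ranges overlapped throughout, with differences of -0.07 (SE 0.29, adjusted p = 0.868) for aged GB against aged vehicle, 0.38 (SE 0.29, adjusted p = 0.499) for aged against young vehicle and 0.32 (SE 0.29, adjusted p = 0.386) for aged GB against young vehicle. The CPM ratio of Hspb7 to Cryab was 0.313 to 0.418 in aged GB, 0.710 to 0.971 in aged vehicle libraries and 0.553 to 0.706 in young vehicle libraries.

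**Figure D3:**
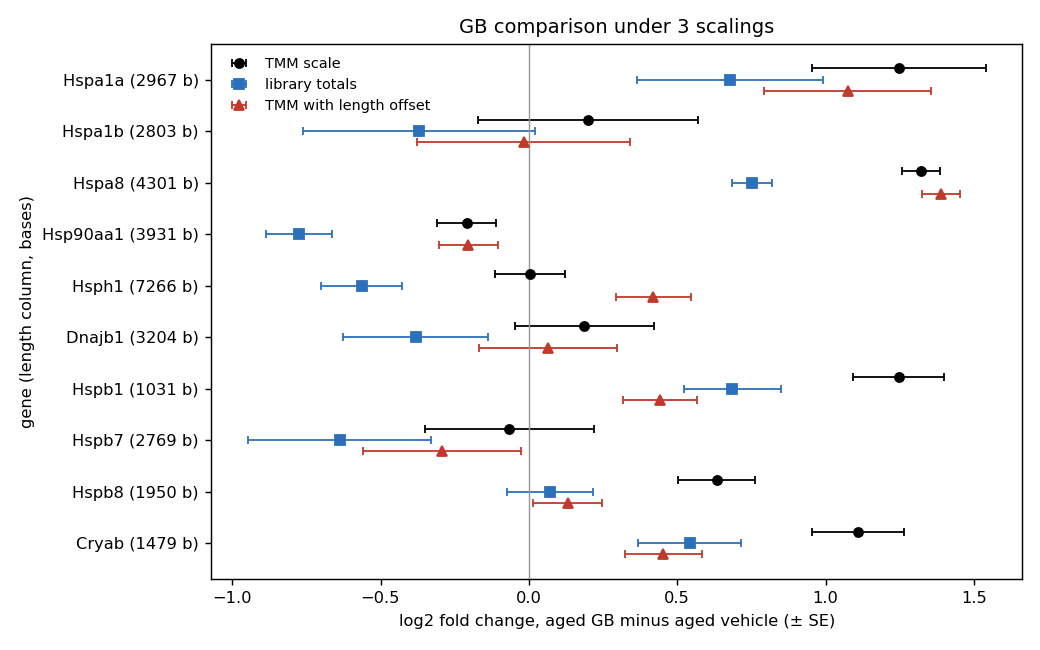
Log2 fold changes with SE of the 10 genes between aged GB and aged vehicle muscle on 3 scales: TMM factors, library totals, and TMM factors with an offset for gene length, with the length in bases beside each gene. Hspa8 lies between 0.75 and 1.39 on all 3 scales, Hspb8 is at 0.63 with TMM, 0.13 with the length offset and 0.07 on library totals, and Hsph1 changes sign.

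On library totals the median of all genes between aged GB and aged vehicle was -0.62, against -0.05 with TMM, and the calls were 2030 higher and 8421 lower, against 4281 higher and 5045 lower. Of the 10 genes, 3 were then higher (Hspa8, Hspb1 and Cryab) and 2 lower (Hsp90aa1 and Hsph1). With the length offset, 5 of the 10 genes were higher in aged GB than in aged vehicle muscle (Hspa1a, Hspa8, Hsph1, Hspb1 and Cryab), where 4023 of the 17534 genes were higher and 4176 lower. Against young vehicle 2 of the 10 were higher, Hspa8 at 1.15 and Cryab at 0.43, where 4267 genes were higher and 4295 lower. Hspa8, Hspb1 and Cryab were thus called higher in aged GB than in aged vehicle muscle on each of these 3 scales.

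The 10 genes differed widely in level. In CPM per kilobase of the table's gene length, the means in aged GB, aged vehicle and young vehicle muscle were 848, 393 and 405 for Cryab, 425, 170 and 205 for Hspa8, 290, 122 and 148 for Hspb1, 274, 177 and 164 for Hspb8 and 173, 181 and 139 for Hspb7. The other genes lay far below on this scale. Hsp90aa1 had 11.2, 12.9 and 12.1, Hsph1 had 7.26, 7.24 and 11.4, and Dnajb1 had 2.83, 2.49 and 2.28 CPM per kilobase. Hspa1a had 2.14, 0.902 and 1.28, and Hspa1b had 1.63, 1.42 and 1.65 CPM per kilobase, in the same order of groups. The constitutive Hspa8 and the small heat shock proteins therefore made up most of the level of these genes in each group, with the inducible HSP70 pair among the lowest.

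Within a library, the 10 genes often deviated from their group means in the same direction. The same count over all genes was not made, so this does not set the 10 genes apart. Over all genes with enough counts, replicate 1 stood furthest from the others in each group. Chi-square per gene between libraries was 35.2 and 54.3 for aged GB pairs with replicate 1, against 18.7 without it. In aged vehicle these values were 54.6 and 63.9 against 17.4, and in young vehicle 64.2 and 53.6 against 19.7. On the scale of log2(CPM + 0.5), aged GB replicate 1 was above its group mean for 9 of the 10 genes, by a median of 0.33, and aged GB replicate 3 was below it for 10 of 10. The largest deviations of aged GB replicate 1 were 0.59 for Hspa1b and 0.51 for Hspa1a, and the smallest in size was -0.02 for Hspa8. Aged vehicle replicate 1 was below its group mean for 7 of 10 genes, young vehicle replicate 1 above for 7 of 10 and young vehicle replicate 3 below for 9 of 10. Without aged GB replicate 1 all 5 genes higher against aged vehicle were still called.

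**Figure D4:**
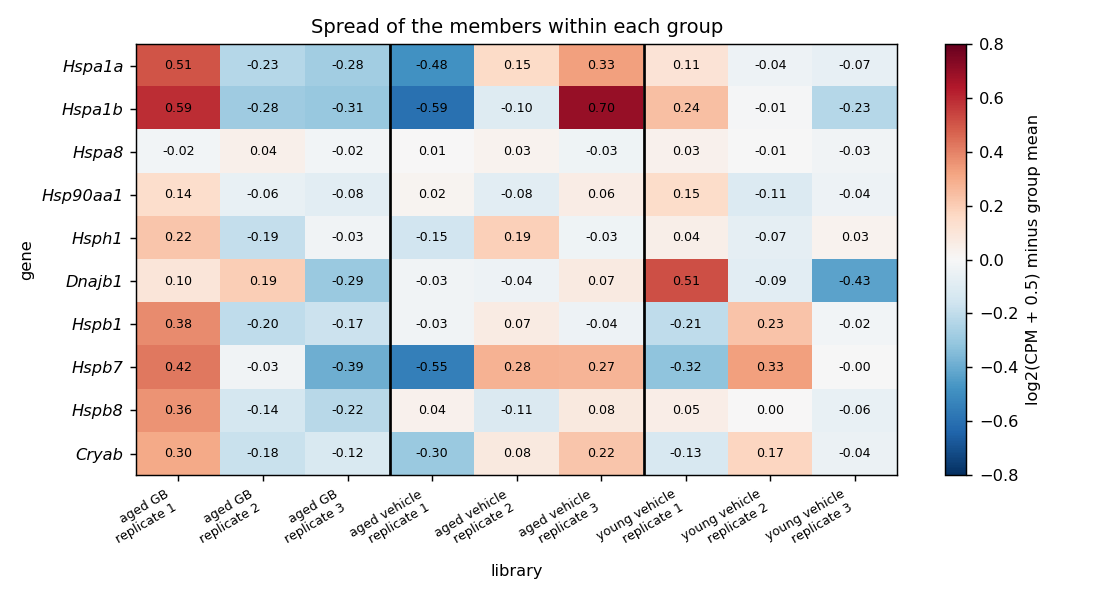
Deviation of each gene in each library from its group mean, as log2(CPM + 0.5), with red above and blue below the mean. Aged GB replicate 1 is above its group mean for all of the 10 genes except Hspa8, which varies least within every group.

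Other genes of the chaperone network were taken from 8 lists with 71 genes, of which 70 were tested and Cryaa had no count in any library. In aged GB against aged vehicle muscle 23 were higher and 24 lower, with a median log2 fold change of 0.03, where 24.4% of all genes were higher and 28.8% lower. On library totals this split was 10 higher and 46 lower, where 2030 of the 17534 genes tested were higher and 8421 lower. With the length offset it was 25 higher and 23 lower, to be read beside the counts over all genes given above for that scale. In aged against young vehicle muscle 0 were higher and 5 lower, with a median of -0.01, where 4.32% of all genes were higher and 4.28% lower. At an unadjusted p under 0.05 these were 8 higher and 12 lower, and the share of all genes at that threshold was not computed. The count of 5 was 11 with DESeq2 (4 higher, 7 lower) and 9 with limma-voom (2 higher, 7 lower). It was 1 without aged vehicle replicate 3, 3 without aged vehicle replicate 2, young vehicle replicate 2 or young vehicle replicate 3, and 8 without aged GB replicate 1. Of the heat shock factors Hsf1, Hsf2 and Hsf4 and the factor-binding protein gene Hsbp1, 4 of 4 were higher in aged GB than in aged vehicle muscle. Hsf1, the main activator of the heat shock response, measured 74.8, 69.5 and 63.6 CPM in aged GB libraries, 35.7, 37.0 and 32.7 CPM in aged vehicle libraries and 42.0, 41.5 and 39.4 CPM in young vehicle libraries, a log2 fold change of 0.98 against aged vehicle (SE 0.09, edgeR adjusted p = 1.73e-06). Between aged and young vehicle Hsf1 differed by -0.22 (SE 0.09, adjusted p = 0.159). Hsf2, a second heat shock factor, was higher by 0.84 and Hsbp1, a small protein that binds and restrains heat shock factor 1, by 1.34. The calls of Hsf1, Hsf2 and Hsbp1 held on both other scales, on which Hsf4 was not followed. On library totals, however, the differences were 0.41 for Hsf1, 0.27 for Hsf2 (adjusted p = 0.0445) and 0.77 for Hsbp1. With the length offset they were 1.42 for Hsf2 and 0.81 for Hsbp1.

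Of 3 tested small heat shock genes outside the 10, Hspb2 (0.86) and Hspb3 (0.71) were higher in aged GB than in aged vehicle muscle, but with the length offset their differences were -0.01 and -0.19, and on library totals they were 0.30 and 0.14 (adjusted p = 0.0170 and 0.330). Of 11 other HSP70 and HSP110 genes 1 was higher, Hspa1l (1.92), a close relative of Hspa1a that shares 4.67% of its 100-mers, and 6 were lower. Hspa1l had 15.6 ± 1.48 CPM in aged GB and 4.13 ± 0.471 CPM in aged vehicle libraries (SD, n = 3 each). Hspa9 (-1.37), the mitochondrial HSP70, and Hyou1 (-1.20), an HSP110 relative of the endoplasmic reticulum, were among the lower ones. Of 13 other J-domain genes 1 was higher and 7 lower. Dnaja4, a partner of cytosolic HSP70, had 6.54 ± 0.418 CPM in aged GB and 47.9 ± 6.90 CPM in aged vehicle libraries (SD, n = 3 each), a difference of -2.87 on the log2 scale (SE 0.13, edgeR adjusted p = 4.98e-09). Dnajb6 (-1.02), mutated in a human limb-girdle muscular dystrophy, and Dnajc3 (-0.90), of the endoplasmic reticulum, were also lower. On library totals Dnajb6 was at -1.58 and Dnajc3 at -1.47, and with the length offset Hyou1 was at -0.79.

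Of 9 nucleotide exchange, BAG and ubiquitin ligase genes 2 were higher in aged GB than in aged vehicle muscle, Bag1 (1.58) and Hspbp1 (0.80), and 1 was lower. That gene was Bag3, the partner of Hspb8, with 96.0, 105.6 and 89.9 CPM in aged GB libraries and 147, 147 and 141 CPM in aged vehicle libraries (log2 fold change -0.57, SE 0.08, edgeR adjusted p = 8.44e-05). The call of Hspbp1 ended on both other scales, at 0.24 (adjusted p = 0.145) on library totals and 0.28 (adjusted p = 0.0628) with the length offset. Bag1 was at 1.01 and 0.88 on those scales and Bag3 at -1.14 and -0.87. Of 7 filament and autophagy genes linked to Hspb8, Bag3 and Cryab 4 were higher and 3 lower. The intermediate filament genes Des (1.55) and Vim (1.02) were higher, and Flnc (-0.96), which encodes filamin C, was lower. On library totals Des was at 0.98, Vim at 0.45 (adjusted p = 0.0481) and Flnc at -1.53, and with the length offset Flnc was at -0.39 (adjusted p = 0.0149). Of 13 HSP90 family and co-chaperone genes 4 were higher and 4 lower, with Ptges3 (1.35), the co-chaperone p23, higher and Ahsa2 (-1.12), related to an activator of the HSP90 ATPase, and Unc45b (-0.73), the myosin chaperone, lower. Of 10 chaperonin genes 5 were higher and 3 lower. Hspe1 (1.13), the mitochondrial HSP10, was higher, while its partner Hspd1 (-0.78), HSP60, and Tcp1 (-0.74), a subunit of the cytosolic chaperonin, were lower. On library totals Ptges3 was at 0.78, Ahsa2 at -1.69, Unc45b at -1.30, Hspe1 at 0.56, Hspd1 at -1.35 and Tcp1 at -1.30, and with the length offset Hspe1 was at 0.47.

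The 5 chaperone network genes lower in aged than in young vehicle muscle were Fkbp4, Hsp90ab1, Smyd1, Dnajb2 and Hspd1. Fkbp4, an HSP90 co-chaperone of steroid receptors, had 116 ± 7.66 CPM in aged vehicle and 156 ± 6.43 CPM in young vehicle libraries (SD, n = 3 each), a difference of -0.43 on the log2 scale (SE 0.08, edgeR adjusted p = 0.00535). Hsp90ab1, the constitutive cytosolic HSP90, had 832 ± 41.7 CPM in aged vehicle and 1044 ± 53.0 CPM in young vehicle libraries (-0.33, SE 0.07, adjusted p = 0.0146). Smyd1, a muscle methyltransferase linked to HSP90, differed by -0.32, Dnajb2, a J-domain protein that binds ubiquitin, by -0.32 and Hspd1 by -0.31. The calls of Hsp90ab1, Smyd1, Dnajb2 and Hspd1 were each lost on leaving out at least 1 vehicle library (adjusted p up to 0.136), and that of Fkbp4 was kept. The call of Hspd1 was also lost on library totals, and that of Dnajb2 without aged GB replicate 2, a library of neither group compared.

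**Figure D5:**
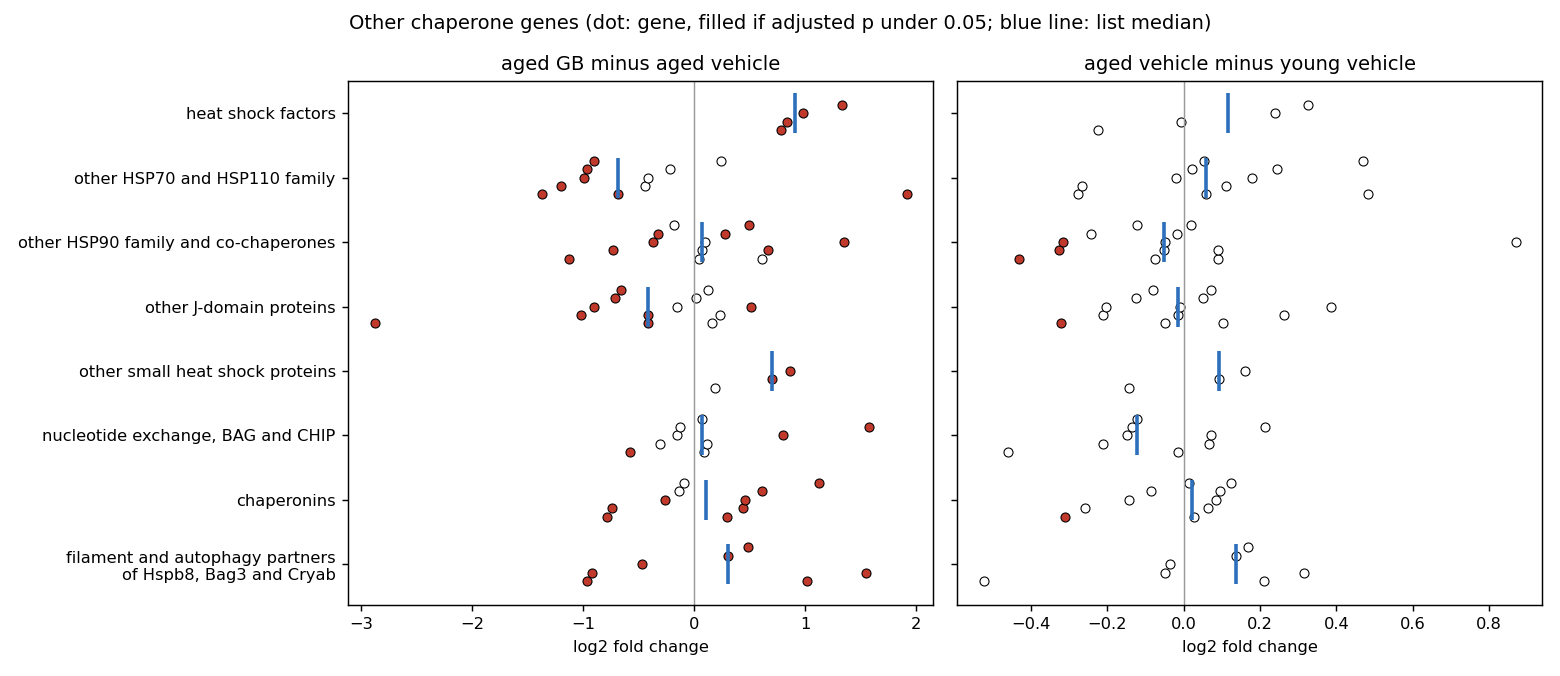
Log2 fold changes of 70 other genes of the chaperone network in 8 lists, between aged GB and aged vehicle (left) and between aged and young vehicle (right). Dots are filled where the edgeR adjusted p was under 0.05, with a line at each list's median. The lists include heat shock factors and filament and autophagy partners. The x axes differ in range: 23 genes lie higher and 24 lower among the filled dots on the left, and 5 lower on the right.

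Markers of other cells and states moved between the same groups, and their part in the values above was not tested. Of all genes tested, 24.4% were higher and 28.8% lower in aged GB than in aged vehicle muscle. Between aged and young vehicle these shares were 4.32% and 4.28%. A count of markers near these shares does not set its list apart from other genes. Of 8 slow-fibre markers, 8 were higher in aged GB than in aged vehicle muscle and 8 were lower in aged than in young vehicle muscle, with summed levels of 1454 to 1885 CPM in aged GB, 147 to 196 CPM in aged vehicle and 1673 to 2356 CPM in young vehicle libraries. Against young vehicle, these sums combine 4 markers higher and 3 lower in aged GB, where 24.7% of all genes were higher and 29% lower. Mean Myh7 was 35.9 CPM in aged GB and 432 CPM in young vehicle, and mean Myl2 was 455 and 216 CPM. Of 5 adipocyte markers 4 were higher in aged GB than in aged vehicle muscle (503.7 to 625.0 against 230.1 to 249.5 CPM summed). Of 4 red cell markers 3 were lower (620.9 to 730.2 against 1050 to 1958 CPM), of 5 endothelial markers 4 were lower (233.7 to 271.0 against 500.5 to 506.5 CPM) and of 5 smooth muscle and pericyte markers 3 were lower (367.4 to 406.5 against 609.0 to 710.5 CPM). In aged against young vehicle muscle, 3 of 4 red cell, 3 of 5 endothelial and 4 of 5 smooth muscle and pericyte markers were higher. Of 12 immediate early genes, which respond to handling and stress, 4 were higher in aged GB than in aged vehicle muscle (Fos, Jun, Ier2 and Atf3), with overlapping sums of 674.2 to 782.2 CPM in aged GB and 557.7 to 968.3 CPM in aged vehicle libraries. In the same comparison 4 of 8 fast-fibre markers were higher and 2 lower, 3 of 5 Schwann cell markers and 1 of 5 lymphocyte markers were higher, 1 of 5 macrophage markers was higher and 3 lower, 1 of 5 tendon markers was higher and 4 lower, and 2 of 13 clock genes and 1 of 2 cold-inducible genes were lower. In aged against young vehicle muscle, 1 of 8 fast-fibre markers was higher and 3 lower, 2 of 5 Schwann cell, 2 of 5 adipocyte, 1 of 5 tendon and 1 of 4 keratinocyte markers were lower, and 1 of 12 immediate early genes was higher. The summed lymphocyte and keratinocyte markers varied among the young vehicle libraries, reaching 47.7 CPM and 84.5 CPM in the highest.

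Likeness to Hspa1a and Cryab was measured as the root mean square difference of centred log2 CPM over the 9 libraries, among 7643 genes that averaged 10 CPM or more. The genes most like Hspa1a were Rhog (0.186), Ccl21a (0.216) and Usf1 (0.242), and those most like Cryab were Tsen15 (0.0716), Prelid3b (0.116) and Cox6a1 (0.119). Among the 10 genes themselves the closest pair was Cryab and Hspb1 (0.159) and the most distant was Hspa8 and Hsph1 (0.747). Hspa1a and Hspa1b, with near-identical promoters, were 0.465 apart.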

How the data were processed

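Gene expression was measured by RNA sequencing of gastrocnemius in 9 libraries. Per the labels' protocols, total RNA was purified with TRIzol and libraries were made with a KAPA mRNA kit. Per the submitters' processing notes, FastQC, HISAT2, SAMtools and DESeq2 were used, and GRCm39 and mm10 are named as builds. No read counter, gene annotation or strand setting is given in the sources used here. The authors deposited raw read counts per gene for 56791 genes, with a gene length column, and groups were taken from the labels.

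Counts were tested in R 4.3.3 with edgeR 4.0.16 on the values as deposited: filterByExpr (minimum count 10, minimum total 15), TMM factors, and a quasi-likelihood fit of the 3 group means to the 9 libraries (robust=TRUE). Two-sided p-values were Benjamini-Hochberg adjusted over 17534 genes, with calls at an adjusted p under 0.05. Each SE is the size of the log2 fold change over the root of its F statistic. The fit was tested on simulated data. Depth limits the low genes most.

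The 10 genes, the other lists and the alternatives were chosen with earlier results of these data known, so counts over them describe and do not test. Other genes named were Hsf1 and, per chaperone list, up to 3 called genes of largest change with at least 2 CPM and no overlap between libraries. Alternatives were library totals, RLE and upper-quartile scaling, no filter and a filter of 1 CPM in 3 libraries, DESeq2 1.42.0, limma-voom (limma 3.58.1), robust=FALSE, separate fits per comparison, a block for the replicate number, thresholds of 0.01 and 0.1, each library left out, Hspa1a and Hspa1b summed, and an offset for each library's trend on gene length (lowess, span 0.3, on TMM-scaled CPM). Promoter windows are from RefSeq and were matched by symbol. The 100-mers come from GENCODE vM21 transcripts, which may not be the annotation the authors used.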

Additional observations from a re-analysis of the deposited data

How the results depend on the processing

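Of 660 values of the 10 genes under alternatives, 600 kept their direction and their side of the threshold, 23 were no longer called, 7 became called and 30 changed sign. Of 638 values of the other named genes these counts were 611, 25, 0 and 2. The thresholds of 0.01 and 0.1 reuse the main fit and cannot change a sign. Some left-out libraries belong to neither group compared, so the counts of unchanged values overstate how far the alternatives differ from the main fit. For aged GB against aged vehicle the sign changed on library totals for Hspa1b (-0.37), Hsph1 (-0.56) and Dnajb1 (-0.38), with upper-quartile factors for Hspb7 (0.0199), with the length offset for Hspa1b (-0.0179), Hspb2 (-0.00589) and Hspb3 (-0.19), and for Hsph1 with no filter (-0.0646), limma-voom (-0.0020), only the groups compared (-0.0017) and the replicate block (-0.0010). Against young vehicle it changed on library totals for Dnajb1 (-0.25) and Hspb7 (-0.23), and for Hspa1b with upper-quartile factors (0.0352) and the 1 CPM filter (0.0286). Leaving out 1 library gave, for aged GB against aged vehicle, -0.13 to 0.0923 for Hsph1, -0.22 to 0.68 for Hspa1b and -0.31 to 0.10 for Hspb7; against young vehicle -0.43 to 0.15 for Hspa1b; and for aged against young vehicle -0.70 to 0.0694 for Hspa1b, -0.16 to 0.0932 for Cryab and -0.0794 to 0.45 for Dnajb1. Except where a called value was named above, these genes were not called either way, and the causes were not tested.

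For aged against young vehicle, 1508 genes were called, 2410 with DESeq2, 650 at 0.01 and 2391 at 0.1, and 749 to 2010 without 1 library. Of the 10 genes 1 was called at 0.01 and 1 to 2 without 1 library. For aged GB against young vehicle, 2 of the 10 were called with the length offset, against 6. Over all genes tested, libraries of the same number in different groups had correlations of deviations between -0.028 and 0.057. Replicate 1 of both vehicle groups still had the highest summed clock genes. These were 1052 CPM against 641 and 672 in young vehicle, and 1404 CPM against 872 and 873 in aged vehicle. Its immediate early sums were also the highest, 863 CPM against 376 and 359, and 968 CPM against 592 and 558. In aged GB libraries these sums were 789 to 803 and 674 to 782 CPM. What these libraries share was not tested. The replicate block left the members called at 5 for aged GB against aged vehicle, 2 for aged against young vehicle and 5 for aged GB against young vehicle and ended the call of Hspa1a against young vehicle (adjusted p = 0.0764) and that of Dnajb2 between aged and young vehicle (adjusted p = 0.0579). Depth limits Hspa1a, Hspa1b and Dnajb1 most, as their counts are the lowest of the 10.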
